A study of Mus musculus with 2 samples.

Results

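The genes described here encode apolipoproteins, the protein parts of plasma lipoproteins, together with the HDL enzyme Lcat. They are Apoa1, Apoa2, Apoa4, Apob, Apoc1, Apoc3, Apoe, Apoh, Apom and Lcat, 10 of the 32101 genes of the mm9 annotation used. A CpG was taken as belonging to a gene when its cytosine lay between 5 kb before the 5' end and the end of the gene and was covered by at least 5 reads in both libraries. By this rule 376 of the 2654195 shared CpGs of the genome belonged to 8 of the 10 genes, and no CpG belonged to more than 1 of them. Cytosines of both strands count separately throughout. The promoter is the stretch within 1 kb of the 5' end, the body runs from there to the gene end, and the upstream stretch covers the remaining 4000 bp before the promoter.

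DNA methylation was measured in liver DNA by reduced representation bisulfite sequencing (RRBS), in which MspI cuts at CCGG and short fragments are sequenced after bisulfite has converted unmethylated cytosines. The KI group was homozygous for a Uhrf1 mutation that removes binding of the protein to methylated lysine 9 of histone H3, and the WT group carried normal Uhrf1. All mice were 3-month-old males, of strain C57BL/6 by the labels, and DNA of 3 mice was pooled into 1 library per genotype, so that the spread between animals is unknown and every test on reads compares the 2 libraries. A label gives the KI genotype as a knock out where the title and the study have a knock-in, and the sample was taken as KI. The mutation is present in all tissues, and liver DNA mixes hepatocytes with other cells.

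Most plasma apolipoproteins are made by hepatocytes. Apob is the structural protein of very-low-density lipoprotein, Apoa1 and Apoa2 are the main proteins of HDL, and Apoe is a ligand for receptors that clear lipoprotein remnants. Apoa4, Apoc1 and Apoc3 are exchangeable apolipoproteins encoded in gene clusters, Apoc3 being an inhibitor of triglyceride clearance. Apom carries sphingosine-1-phosphate on HDL, Apoh is a phospholipid-binding plasma glycoprotein, and Lcat esterifies the cholesterol of HDL. Uhrf1 recognises hemimethylated CpGs after replication and recruits Dnmt1, which restores methylation on the new strand.

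Coverage summed over all listed CpGs was 173109895 in KI and 192144002 in WT, counting a read at every CpG it spans, and the shared CpGs of the genome had a median of 37 reads in each library. The 376 CpGs of the apolipoprotein genes had fewer, with medians of 23 reads in KI and 25 in WT. Over the whole genome the mean level was 42.6% in KI and 45.6% in WT, a difference of -2.99 percentage points. Promoters of marker genes of liver cell types were also tested, although a change between the libraries does not identify the cells measured. Those of hepatocyte genes could be tested for 3 of 9 listed genes and were lower in KI at 2. Of all tested promoters 7.53% were lower and 1.33% higher. Of the blood and Kupffer cell promoters 1 of 2 tested was lower in KI, and none of the 7 tested promoters of endothelial, stellate cell and cholangiocyte genes was called. Whether the makeup of cells differed between the pools was not tested.

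The Apob promoter was the only apolipoprotein promoter called, and it was less methylated in KI. Its mean level was 31.1% in KI and 43.7% in WT over 18 CpGs, of which 17 were lower in KI, 0 were higher and 1 was equal. The 18 include CpGs inside CCGG sites, where end repair can make a strand read as unmethylated. Without these the call was lost (-14.6 points, 12 CpGs). It was also lost with CpGs at least 100 bp apart and within 500 bp of the 5' end. The promoters of Apoe and Apoh were almost free of methylation in both libraries, those of Apoa4 and Lcat were at intermediate levels without a call, and those of Apoa1, Apoa2, Apoc3 and Apom had no shared CpG. Elsewhere the Apoa2 upstream stretch was called lower in KI through CpGs in the neighbouring gene Nr1i3.

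The 3 MspI fragments on which the promoter results turn follow, in mm9 and 5' to 3' along the strand of the gene, with each CpG in capitals. The Apob fragments adjoin each other before the 5' end, and the Lcat fragment lies just before the Lcat 5' end.
Apob far fragment chr12:7983911-7984125 (plus strand): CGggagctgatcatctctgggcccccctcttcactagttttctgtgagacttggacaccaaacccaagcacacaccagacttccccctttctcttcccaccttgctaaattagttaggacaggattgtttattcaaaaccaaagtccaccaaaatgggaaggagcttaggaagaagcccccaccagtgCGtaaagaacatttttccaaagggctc
Apob near fragment chr12:7984126-7984372 (plus strand): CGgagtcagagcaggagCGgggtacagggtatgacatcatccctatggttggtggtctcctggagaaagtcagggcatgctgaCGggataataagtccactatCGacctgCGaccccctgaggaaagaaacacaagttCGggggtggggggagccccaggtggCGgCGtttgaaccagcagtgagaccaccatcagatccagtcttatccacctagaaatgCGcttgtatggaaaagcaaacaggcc
Lcat fragment chr8:108467353-108467476 (minus strand): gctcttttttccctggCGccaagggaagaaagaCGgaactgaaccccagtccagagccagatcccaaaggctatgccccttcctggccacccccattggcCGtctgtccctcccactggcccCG
The Apob fragments hold 2 and 9 CpG pairs and the Lcat fragment 4. None of the 3 overlaps an exon of its gene.

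RRBS reached the 10 genes unevenly. Apoh had 159 shared CpGs, Apoe 86, Apoa2 40, Apom 27, Lcat 27, Apob 22, Apoa4 14 and Apoc1 1, while Apoa1 and Apoc3 had 0. In mm9 the stretch of Apoa1 holds 4 CCGG sites and that of Apoc3 holds 5, against 73 in that of Apoh and 17 each in those of Apob and Apoe. That of Apoa4 also holds 5, with 14 shared CpGs, that of Apoc1 9, that of Apoa2 15, and those of Apom and Lcat 23 each. Of the CpGs listed for Apoc3 none had more than 3 reads in KI or 2 in WT. At Apoa1 the highest coverage of a CpG was 4 reads in KI and 7 in WT.

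**Figure D1:**
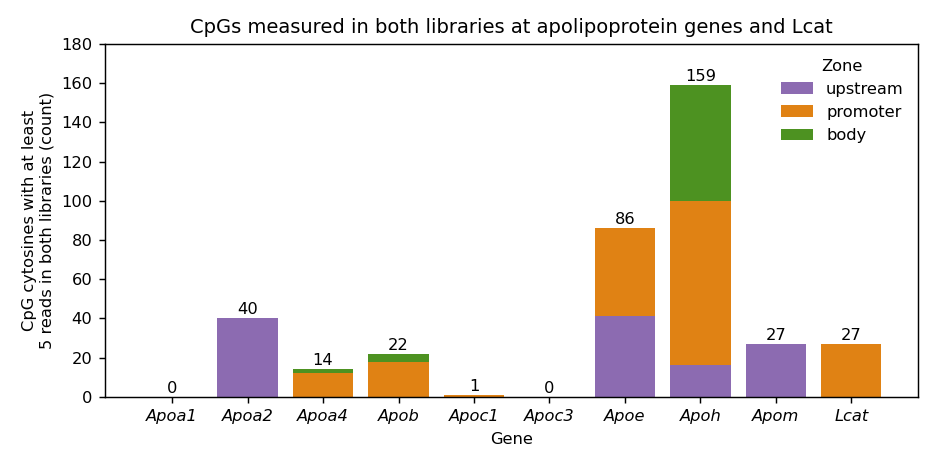
Stacked bars give, for each gene on the x axis, the number of CpG cytosines covered by at least 5 reads in each library, split into upstream stretch, promoter and body. Apoh and Apoe, with 159 and 86, hold most of them, and Apoa1 and Apoc3 hold 0.

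Many of the 376 CpGs do not lie inside the gene they were assigned to. The annotation places 149 in the gene alone, 49 in the gene and in another one at once, 121 in another gene only and 57 between genes. Of the 124 upstream CpGs 86 lay in a neighbour, chiefly Tomm40 for Apoe, Nr1i3 and Tomm40l for Apoa2, and Prkca for Apoh. Values of the upstream stretches therefore describe these neighbours as much as the apolipoprotein genes.

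Over all 376 CpGs the mean level was 22.6% in KI and 23.5% in WT, a change of -0.967 points with a counting error of 0.541. Of these CpGs 100 were lower in KI, 90 higher and 186 equal, and 227 were under 10% in both libraries. By Fisher's exact test (two-sided, Benjamini-Hochberg adjusted over all shared CpGs of the genome, with a difference above 25 points) 1 CpG was called lower in KI and 1 higher. Over the genome 1.09% of shared CpGs were called lower and 0.0474% higher. An unadjusted p under 0.05 was found at 15 of the 376, of which 10 were lower and 5 higher in KI.

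By zone, the 187 promoter CpGs averaged 9.24% in KI and 12.0% in WT, a change of -2.77 points (counting error 0.673). Without the 84 CpGs of the Apoh promoter the remaining 103 averaged 16.8% in KI and 21.7% in WT. The 65 body CpGs averaged 51.7% in KI and 47.8% in WT, a change of 3.89 points (counting error 1.98), and the 124 upstream CpGs 27.4% in KI and 28.2% in WT. The promoter mean depended on CpGs with few reads: at CpGs covered by at least 10 reads in each library it changed by -0.313 points (counting error 0.520). The body mean changed by -1.04 points (counting error 2.22) at such CpGs, so its sign was opposite.

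Regions with at least 5 shared CpGs were tested in 2 ways, on reads summed over their CpGs by Fisher's exact test and with each CpG as a separate stratum by the Cochran-Mantel-Haenszel test. Both tests were two-sided and adjusted over all such regions of the same kind in the genome. Both count reads at different CpGs as independent, although a molecule can be read at several CpGs, so their p can be too small. A region was called where both adjusted p were under 0.05 in the same direction. Of the promoters 1 of 5 was lower in KI and 0 were higher, where 7.53% of 16516 promoters of the genome were lower and 1.33% higher. The only body tested, that of Apoh, was not called, where 35.3% of 15923 bodies were lower and 0.804% higher. Of the upstream stretches 1 of 4 was lower and 0 were higher, where 17.3% of 9076 stretches were lower and 1.23% higher. With so few regions these shares do not set the genes apart from the genome.

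**Figure D2:**
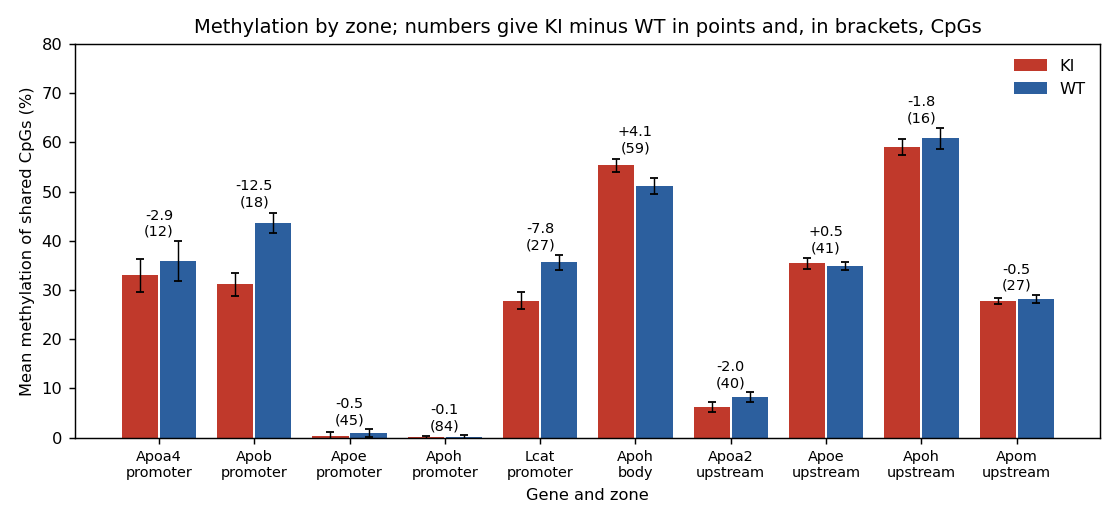
Bars give the mean methylation of the shared CpGs in percent, KI left of WT, for each gene and zone with at least 5 shared CpGs, with error bars of 1 counting error (reads taken as independent). The number above each pair is KI minus WT in percentage points, with the number of CpGs in brackets. The Apob promoter, at 31.1% in KI and 43.7% in WT, has the largest difference, and the promoters of Apoe and Apoh are near 0.

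Apob (ENSMUSG00000020609.8, chr12:7984454-8023641, plus strand) had its shared promoter CpGs between 543 and 80 bp before the 5' end, in the sequence between genes. The change of the mean was -12.5 points with a counting error of 3.18 and a 95% interval of -18.8 to -6.32. Summed over the CpGs, 220 of 767 reads were methylated in KI and 418 of 1158 in WT, which is 28.7% and 36.1%. The adjusted p was 0.00978 by Fisher's exact test and 0.00250 by the Cochran-Mantel-Haenszel test. The interval and both tests treat reads at different CpGs as independent, although CpGs of 1 fragment strand were read by the same molecules. The interval is therefore too narrow, and both p can be too small.

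Each strand of each Apob fragment was lower in KI. On the 215 bp fragment chr12:7983911-7984125 the inner CpG pair stood at 23.3% of 30 reads in KI and 41.4% of 29 reads in WT on the plus strand. Its minus strand was at 40.2% of 87 reads in KI and 51.2% of 84 in WT. On the 247 bp fragment chr12:7984126-7984372, the 5 plus-strand CpGs averaged 33.5% in KI and 39.7% in WT, with 49 to 50 and 99 to 108 reads. Its 5 minus-strand CpGs, with 9 reads each in KI and 11 to 12 in WT, averaged 37.8% in KI and 60.8% in WT. The strands with more reads thus had the smaller differences.

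Of the 18 Apob promoter CpGs, the 12 covered by at least 20 reads in each library averaged 29.0% in KI and 37.4% in WT. The other 6 averaged 35.3% in KI and 56.2% in WT. Levels ranged from 0% to 50.0% in KI and from 0% to 75.9% in WT over the 12, and from 22.2% to 44.4% in KI and from 33.3% to 75.0% in WT over the 6. No single CpG of the promoter was called. Among those with at least 20 reads, the largest change was at chr12:7983911, 543 bp before the 5' end and inside a CCGG site. There 16 of 32 reads were methylated in KI (50.0%, Wilson interval 33.6% to 66.4%) and 22 of 29 in WT (75.9%, 57.9% to 87.8%), with an adjusted p of 0.554 by Fisher's exact test. In the genome, 1.33% of the tested promoters had a mean change lower than that of Apob. The median level of all tested promoters was 0.981% in WT, so most could not fall as far, and the rank partly reflects the higher level of Apob.

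The Apob call was kept at CpGs with at least 10 or 20 reads, with strands summed and with reads thinned to equal coverage, where the change lay between -10.2 and -7.20 points. It was lost without CpGs inside CCGG sites (-14.6 points, 12 CpGs), with CpGs at least 100 bp apart (-12.9 points, 8 CpGs) and within 500 bp of the 5' end (-12.4 points, 16 CpGs). The Apob body had 4 shared CpGs, all in CCGG sites of an intron between 1118 and 1252 bp after the 5' end, which averaged 2.30% in KI and 3.24% in WT. In CCGG sites 1 strand can read as unmethylated because end repair after MspI fills it in, so these 4 values do not all give tissue levels. No shared CpG lay further into the gene.

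Lcat (ENSMUSG00000035237.7, chr8:108463451-108467282, minus strand) had all of its 27 shared CpGs in the promoter, which also lies in an intron of the noncoding gene Gm16156. The mean was 27.8% in KI and 35.6% in WT, a change of -7.77 points with a counting error of 2.32. Of the 27 CpGs 12 were lower and 13 higher in KI. On summed reads the levels were 34.0% in KI and 34.4% in WT, and the adjusted p was 1 by Fisher's exact test and 0.892 by the Cochran-Mantel-Haenszel test. The Lcat promoter was therefore not called.

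The mean of the Lcat promoter rested on the minus-strand CpGs before the 5' end, 5 in number, with 8 reads each in WT. They averaged 15.5% in KI (11 to 14 reads) and 65.0% in WT, and 4 of them were lower in KI and 1 was at 0% in both libraries. On the plus strand of the same 124 bp fragment, chr8:108467353-108467476, 3 CpGs with 47 to 48 reads in KI and 29 in WT averaged 16.8% in KI and 20.7% in WT. Without these 5 CpGs the other 22 averaged 30.6% in KI and 28.9% in WT, a split chosen after the values were seen. At CpGs with at least 10 reads the change of the promoter was 1.72 points, with at least 20 reads 3.27 points, and with strands summed 0.454 points.

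After the 5' end Lcat was at intermediate levels in both libraries. The 16 CpGs there averaged 37.7% in KI and 35.4% in WT. In an intron, 220 to 306 bp after the 5' end, 3 plus-strand CpGs with 151 to 154 reads in KI and 155 to 157 in WT averaged 52.1% in KI and 45.4% in WT. The minus strand of that fragment averaged 39.6% in KI, at 37 reads, and 32.5% in WT, at 39 reads. All 6 of these CpGs were higher in KI, and none was called. The largest change at Lcat among CpGs with at least 20 reads was at chr8:108467353, 71 bp before the 5' end and inside a CCGG site. There 9 of 48 reads were methylated in KI and 2 of 28 in WT.

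**Figure D3:**
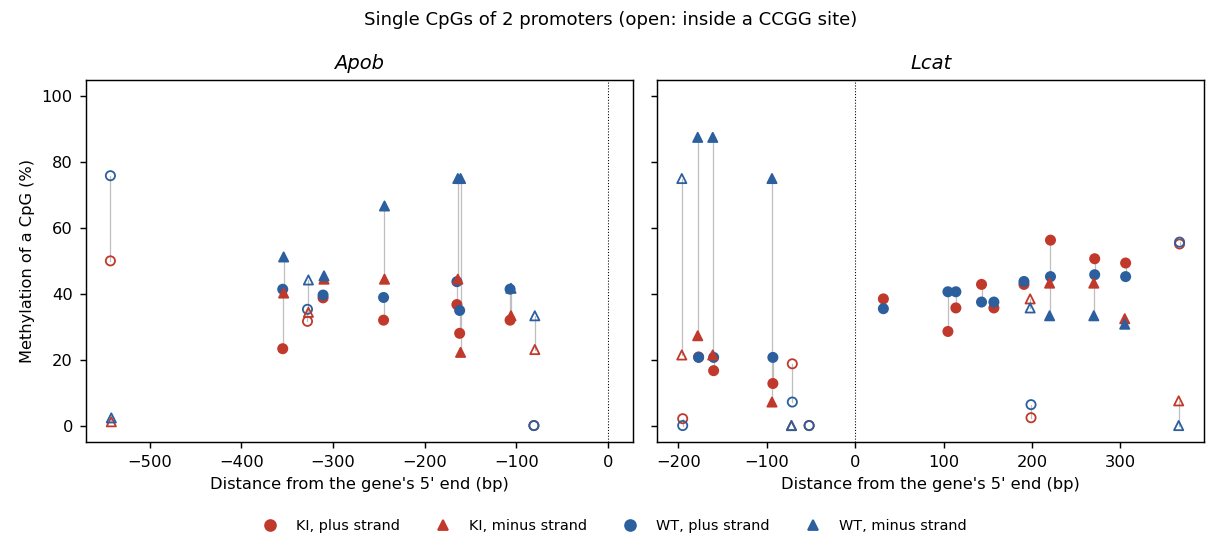
Points give the methylation in percent of each shared CpG of the Apob and Lcat promoters against its distance in bp from the 5' end, KI in red and WT in blue, circles for the plus and triangles for the minus strand, open inside CCGG sites, with a grey line joining both libraries. At Apob 17 of 18 CpGs are lower in KI. At Lcat the wide gaps belong to 4 minus-strand CpGs with 8 WT reads each.

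Apoe (ENSMUSG00000002985.9, chr7:20281458-20284515, minus strand) had a promoter close to unmethylated. Its 45 shared CpGs, all inside the gene, averaged 0.419% in KI and 0.919% in WT, and 14 of 2240 summed reads were methylated in KI and 13 of 1894 in WT. The 41 upstream CpGs averaged 35.5% in KI and 34.9% in WT, a change of 0.548 points with a counting error of 1.39. They formed 2 blocks at the 3' part of Tomm40, which encodes a channel of the outer mitochondrial membrane. The 16 CpGs beyond 3 kb averaged 80.4% in KI and 79.2% in WT, and the 25 nearer ones 6.66% in KI and 6.54% in WT.

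On summed reads the Apoe upstream stretch was at 43.0% in KI and 47.0% in WT, with an adjusted p of 0.0547 by Fisher's exact test. The Cochran-Mantel-Haenszel test, with each CpG as a stratum, pointed the other way, to higher in KI, with an adjusted p of 0.122. Summed reads weigh each CpG by its coverage, which in the more methylated far block reached 96 reads per CpG in KI and 142 in WT. On the minus strand of the nearer fragment chr7:20286725-20286912 it was 46 to 48 in KI and 51 to 53 in WT. The summed levels therefore also reflect a different mix of the blocks in each library. The largest change at a CpG with at least 20 reads was at chr7:20286852 in the Tomm40 UTR, where 17 of 46 reads were methylated in KI and 11 of 52 in WT. Neither this CpG nor the stretch was called.

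Apoh (ENSMUSG00000000049.5, chr11:108204668-108275710, plus strand) begins in the annotation with the transcript Apoh-002, whose 5' end lies inside Prkca, a gene of the opposite strand for a protein kinase. The 84 promoter CpGs averaged 0.0238% in KI and 0.142% in WT, with 1 methylated read of 2642 in KI and 4 of 2418 in WT. The Prkca 5' end lies 574 bp after that of Apoh, within the same promoter window. The transcript Apoh-001 starts 51939 bp further on and had 0 shared CpGs within 1 kb, the nearest being 10392 bp before and 5066 bp after it. The low promoter level of Apoh therefore describes the start shared with Prkca.

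The Apoh body had 59 shared CpGs in introns, at 55.3% in KI and 51.2% in WT, a change of 4.15 points with a counting error of 2.14. The 17 CpGs within 2 kb of the 5' end averaged 28.8% in KI and 18.4% in WT, and the 42 beyond averaged 66.0% in KI and 64.4% in WT. At CpGs with at least 10 reads the change was -1.05 points. The adjusted p was 0.262 by Fisher's exact test and 0.599 by the Cochran-Mantel-Haenszel test.

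The single CpG called higher in KI lay in this body at chr11:108205897, 1229 bp after the 5' end, in an intron. All 5 of 5 reads were methylated in KI (Wilson interval 56.6% to 100%) and 0 of 7 in WT (0% to 35.4%), with an adjusted p of 0.0443 by Fisher's exact test. The cytosine of the opposite strand was at 56.2% in KI and 60.0% in WT. The call was lost at CpGs with at least 10 reads, with strands summed and with reads thinned to equal coverage. The largest change with at least 20 reads was at chr11:108213348 in another intron, inside a CCGG site. There 21 of 33 reads were methylated in KI and 9 of 27 in WT, with an adjusted p of 0.413 by the same exact test. The minus strand of the fragment before this site had 22 reads in KI and 8 to 10 in WT. That of the fragment after it had 11 in KI and 17 in WT. End repair fills in a strand of such a site, and how far this unequal mix of fragments moved the levels was not tested.

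Before the 5' end, 16 CpGs in an intron of Prkca averaged 59.0% in KI and 60.8% in WT, a change of -1.76 points that was 4.76 points without CpGs inside CCGG sites. On the fragment 1404 to 1475 bp before the 5' end, the minus strand averaged 65.8% in KI, at 100 to 101 reads, and 65.7% in WT, at 103 to 104 reads. Its plus strand averaged 62.9% in KI and 65.3% in WT. The strand with the most reads thus showed close to equal levels, and the stretch was not called.

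Apoa2 (ENSMUSG00000005681.6, chr1:173155185-173156510, plus strand) had 0 shared CpGs in its promoter and body. Its 40 upstream CpGs averaged 6.27% in KI and 8.25% in WT, a change of -1.98 points with a counting error of 1.41. On summed reads the levels were 4.95% in KI and 9.86% in WT, with an adjusted p of 0.000103 by Fisher's exact test and 0.00810 by the Cochran-Mantel-Haenszel test. The stretch was called lower in KI.

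The Apoa2 call came from the far end of the stretch. There 8 CpGs in the UTR of Nr1i3, the gene of the constitutive androstane receptor, where it overlaps Tomm40l, averaged 28.8% in KI and 37.3% in WT, with 5 lower and 3 higher in KI. The other 32 CpGs, in and before Tomm40l, averaged 0.630% in KI and 0.977% in WT. Among the 8 was the single CpG called lower in KI, at chr1:173150698, 4487 bp before Apoa2 and inside a CCGG site. It had 8 of 30 reads methylated in KI (26.7%, Wilson interval 14.2% to 44.4%) and 35 of 55 in WT (63.6%, 50.4% to 75.1%), with an adjusted p of 0.0492 by Fisher's exact test. The call of this CpG was lost with strands summed and with reads thinned. The call of the stretch was lost without CpGs inside CCGG sites (-1.61 points), with reads thinned (-2.25 points) and with CpGs at least 100 bp apart (-2.20 points), where the size of the change was close to that with all CpGs, and without the 8 CpGs, where it was -0.347 points.

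Apom (ENSMUSG00000024391.6, chr17:35265942-35268995, minus strand) also had shared CpGs in its upstream stretch only. The 27 averaged 27.7% in KI and 28.2% in WT and fell into 2 blocks. On summed reads the levels were 56.3% in KI and 59.9% in WT, which also reflect the coverage of each block. On the minus strand outside CCGG sites the near block had 221 reads per CpG in KI and 248 in WT. The far fragment chr17:35271856-35272053 had 43 to 45 in KI and 37 to 38 in WT. The 17 beyond 2 kb, at the 5' end of the neighbour Bag6, averaged 0.140% in KI and 0% in WT. The 10 within 2 kb averaged 74.6% in KI and 76.2% in WT, and the 6 of them outside CCGG sites 93.6% in KI and 96.6% in WT.

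The near Apom block was among the best covered of the 10 genes. Its plus strand, at 83 reads in KI and 88 to 90 in WT, averaged 94.0% in KI and 97.0% in WT, and its minus strand, at 221 reads in KI and 248 in WT, averaged 93.2% in KI and 96.1% in WT. At chr17:35270539 198 of 221 reads were methylated in KI (89.6%) and 239 of 248 in WT (96.4%), with an unadjusted p of 0.00522 by Fisher's exact test that did not pass the adjustment. The stretch was not called with all CpGs and was called lower in KI without those inside CCGG sites, at -1.05 points.

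Apoa4 (ENSMUSG00000032080.6, chr9:46048779-46051542, plus strand) had 12 shared promoter CpGs, all inside the gene between 76 and 777 bp after the 5' end. They averaged 33.0% in KI and 35.9% in WT, a change of -2.94 points with a counting error of 5.33. Single levels ran from 0% to 72.7% in KI and from 0% to 100% in WT, with 5 CpGs lower and 6 higher in KI. On summed reads 54 of 160 were methylated in KI and 34 of 100 in WT, so the shares were 33.8% and 34.0%, and the adjusted p was 1 by Fisher's exact test. At the 3 CpGs with at least 10 reads in each library, all inside CCGG sites, the change was 12.2 points (counting error 9.95). No CpG of Apoa4 had 20 reads in both libraries, and the 2 body CpGs were at 43.3% in KI and 37.5% in WT.

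**Figure D4:**
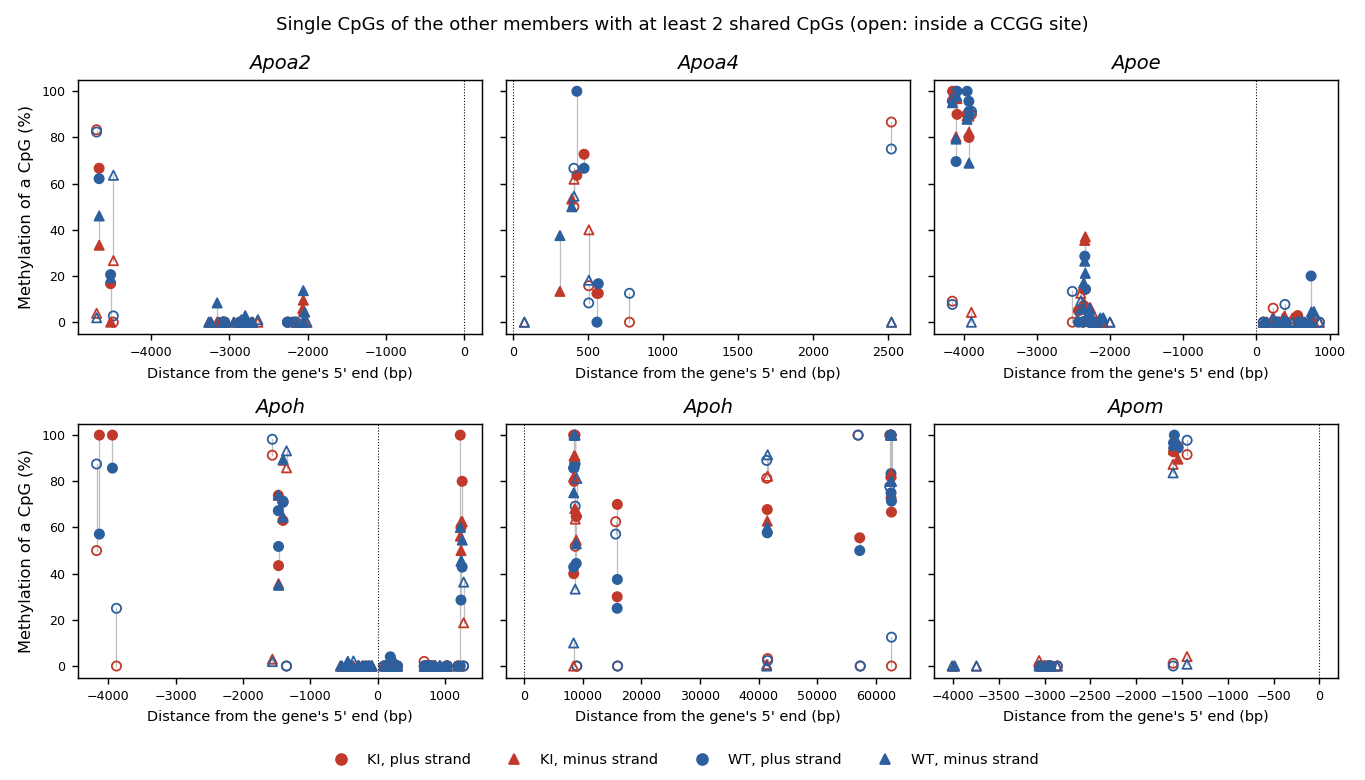
Points give the methylation in percent of each shared CpG of Apoa2, Apoa4, Apoe, Apoh (near the 5' end, and further into the body) and Apom against its distance in bp from the 5' end, KI in red and WT in blue, circles for the plus and triangles for the minus strand, open inside CCGG sites. CpGs near the 5' ends of Apoe and Apoh lie close to 0 in both libraries, and the upstream CpGs of Apoe and Apom form blocks of high and of low levels.

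Apoc1 had 1 shared CpG, 518 bp before its 5' end, with 0 of 7 reads methylated in KI (Wilson interval 0% to 35.4%) and 1 of 7 in WT (2.57% to 51.3%). Summed over CpGs read at least 1 time in each library, an alternative chosen after seeing the data, the Apoc1 promoter (20 CpGs) had 0 of 76 reads methylated in KI and 1 of 51 in WT. The same sum for the Apoa1 promoter (4 CpGs) was 0 of 10 in KI and 0 of 13 in WT, and for the Apoc3 promoter (11 CpGs) 1 of 18 in KI and 0 of 19 in WT. For the Apom promoter (10 CpGs) it was 20 of 40 in KI and 13 of 25 in WT, and for the Apoa2 promoter 0 of 1 in both. The 95% interval of the difference was -10.3 to 3.11 points at Apoc1, -22.8 to 27.8 at Apoa1, -11.9 to 25.8 at Apoc3 and -25.3 to 21.7 at Apom, so smaller differences were not detectable at this depth.

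The levels read on the strands of a CpG pair often differed. Outside CCGG sites 93 pairs had both strands shared, and in 45 of them at least 1 of the levels reached 10%. In these 45 the strands differed by a median of 9.09 points in KI and 11.9 points in WT, and both strands were lower in KI at 14, both higher at 9, and they disagreed or 1 was equal at 22. Some pairs had few reads on a strand, such as 5 in KI and 7 in WT at chr11:108205897 of Apoh. Counting error alone can give such gaps there, and it was not separated from real strand differences. At 24 CCGG pairs with a strand at 20% or more, the higher strand averaged 65.7% in KI and 71.7% in WT and the lower strand 7.99% in KI and 7.50% in WT. The strands were ordered by level and not by which was filled in, so the ordering itself makes part of this gap. End repair after MspI fills in 1 strand of the cut site with unmethylated cytosine, so levels inside CCGG sites are not those of the tissue on that strand.

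**Figure D5:**
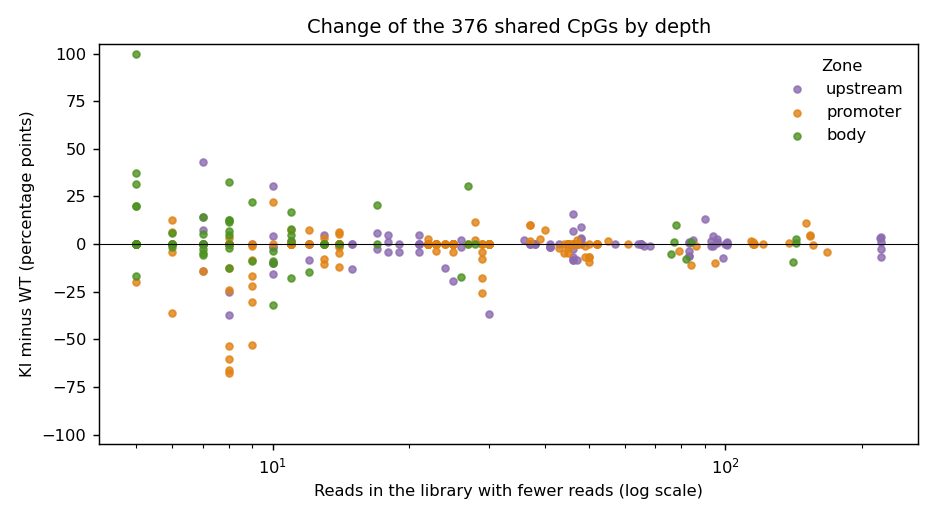
Each point is 1 of the 376 shared CpGs, with the number of reads in the library that has fewer on a log x axis and KI minus WT in percentage points on the y axis, coloured by zone. Changes above 50 points in size occur only at CpGs with under 10 reads in 1 library, and the called CpG of the Apoa2 upstream stretch, at -37.0 points, has 30 reads in KI.

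Other genes of lipoprotein metabolism were taken from a list of 39. Of 24 tested promoters 3 were lower in KI and 1 was higher, where 7.53% of all tested promoters were lower and 1.33% higher. The median change was -0.600 points, where the median over all tested promoters was -0.0531 points. Those lower were Tm6sf2, which acts in lipoprotein secretion (13.1% in KI, 17.8% in WT), Angptl4, an inhibitor of lipoprotein lipase (0% in KI, 1.38% in WT), and Scarb1, the HDL receptor (5.46% in KI, 8.34% in WT). Pltp, the phospholipid transfer protein, was higher (7.48% in KI, 5.46% in WT). Except at Tm6sf2 these differences were under 3 points.

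Of 28 tested bodies on the list 12 were lower in KI and 0 were higher, where 35.3% of all tested bodies were lower and 0.804% higher. The median change was -1.75 points, against -1.98 points over all tested bodies. The differences largest in size among the 12 were at Apoc4, in the cluster of Apoe (27.5% in KI, 41.3% in WT over 16 CpGs), and at Lrp2, an endocytic receptor (54.6% in KI, 64.5% in WT over 89 CpGs). Of 13 tested upstream stretches 0 were called, where 17.3% of all were lower and 1.23% higher, with a median change of -1.40 points against -1.68 points over all. Apoc2 and Apoc4 share the 11 CpGs of their tested promoters, at 19.9% in KI and 32.6% in WT, and were not called.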

How the data were processed

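The authors deposited, per CpG cytosine, a count of covering reads and the percent of them methylated. They mapped the reads to mm9 and kept unique matches, using Bismark, whose version the submitters' processing notes give as 0.12.20. Trimming, duplicate handling and bisulfite conversion rates are not given in the sources used here. All deposited strand entries are F, so strands were taken from the mm9 sequence. Methylated reads were coverage times percent, whole at 100% of CpGs within 0.005 points of the percent, its rounding. Genes came from the mm9 GENCODE annotation. Regions and CpGs were tested over the whole genome with Python 3.11.15, numpy 2.4.6, pandas 2.3.3, scipy 1.17.1 and numba 0.67.0, and plotted with matplotlib 3.10.9, after the procedures were tested on simulated data. The genes and lists were chosen with earlier results of these data known. Single CpGs named are those called and, per gene, the largest change among CpGs covered by at least 20 reads in each library, and others are named as examples chosen after their values were seen. Median depth was 37 reads per shared CpG. Counting errors of means are binomial, with 0.5 added to the methylated and the unmethylated reads of a CpG. Intervals are at 95% and cover counting error only, and reads of 1 PCR product may count several times, since no molecular identifiers are named. Alternatives varied the read minimum, strands, CCGG sites, coverage, spacing, promoter width and test. Non-CpG methylation and repeats were not analysed here.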

Additional observations from a re-analysis of the deposited data

How the results depend on the processing

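No paired analysis was possible because each genotype is 1 pooled library. The CpGs called lower in KI numbered 2 by the chi-square test and 0 with strands summed, without CpGs inside CCGG sites and with reads thinned, and those called higher 0 at 10 or 20 reads, with strands summed and with reads thinned. The mean change of the promoter CpGs was -0.313 points at 10 reads, -0.527 at 20 reads and -1.22 with strands summed, and that of the body CpGs -1.04 at 10 reads. Promoters called lower numbered 0 without CpGs inside CCGG sites, with CpGs 100 bp apart and within 500 bp, and upstream stretches 0 with reads thinned (Apoa2 at -2.25 points), with CpGs 100 bp apart (-2.20) and without the Apoa2 CpGs in Nr1i3 (-0.347), an alternative chosen after seeing the data. Without CpGs inside CCGG sites 1 stretch was called, that of Apom and not of Apoa2. Summing at 1 read and the start of transcript 001 were also chosen after seeing the data. For single genes by zone, 79 alternative values stayed within the 95% counting interval with no change of call, 10 lay outside it, 7 lost a call and 1 gained it. Of the sums at 1 read, which were not tested, 11 stayed within the interval and 2 lay outside. The causes were not tested. Depth limits Apoa1, Apoa2, Apoc1, Apoc3 and Apom promoters, which had 0 or 1 shared CpGs.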
